A study of Arabidopsis thaliana with 251 samples.

Results

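The genes described here were 10 MADS-box transcription factor genes that set the identity of floral organs in Arabidopsis: AG (AT4G18960, chr4:10382856-10388539), SEP1 (AT5G15800, chr5:5151334-5154253), SEP2 (AT3G02310, chr3:464279-467151), SEP3 (AT1G24260, chr1:8593536-8596123), AP3 (AT3G54340, chr3:20119140-20121314), PI (AT5G20240, chr5:6828904-6831515), AP1 (AT1G69120, chr1:25982294-25986349), SHP1 (AT3G58780, chr3:21738160-21742517), SHP2 (AT2G42830, chr2:17820114-17824013) and FUL (AT5G60910, chr5:24502434-24506269), with positions in the RefSeq annotation of TAIR10.1. They were taken by name and not by a rule on measured values, though earlier results of these data were known at the time. They are 10 of the 27444 protein-coding genes of the nuclear chromosomes. Each gene was read as its body plus 500 bp upstream, referred to as its window. In every list of called peaks, the presence of a peak in the window, the number of window bases inside peaks (covered bases) and the fold rank of the strongest overlapping peak were recorded. The fold rank is the percentage of the entries of the same list that have a lower fold enrichment. An entry is a peak or, where a list repeats a peak for each of its summits, a summit.

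The series tested proteins fused to an artificial zinc finger (ZF) that was designed for the promoter of FWA and that also binds many other sites. ChIP–seq, the sequencing of DNA recovered with an antibody to a histone mark or protein, gave 108 peak lists, 1 per library. Of these, 104 came from leaves of plants of 4 to 5 weeks and 4 from floral tissue. Leaf lists covered 9 targets, namely H3K27me3, H3K4me3, H3K36me2, H3K36me3, H3K9ac, H3K14ac, H3K27ac, H4K16ac and RNA polymerase II (Pol II, an antibody to the Ser5-phosphorylated form). All plants were of the Columbia-0 (Col-0) ecotype. The lines LHP1-ZF, MSI1-ZF, JMJ14-ZF, ELF7-ZF, CPL2-ZF, HDA6-ZF, HD2A-ZF, HD2B-ZF and HD2C-ZF were T2 transgenic plants carrying the named protein fused to ZF and were picked by the study for early flowering. EYFP-ZF carried a fluorescent protein fused to ZF. All of these lines, and their control fwa, carried the fwa epiallele, in which the FWA promoter has lost its DNA methylation and FWA is active in leaves, which delays flowering. In the HD2 data sets the titles divide the control into fwa1, fwa2 and fwa, a division whose meaning is not given in the sources used here, and these were counted together as fwa. The elf7 mutant (the T-DNA insertion allele elf7-3) was compared with Col-0, and neither carried the epiallele. The ZF constructs used either the UBQ10 promoter with the effector's cDNA, so that the protein was not limited to cells that normally make it, or a genomic fragment of the effector with its own promoter, and the labels do not say which of these a line carried. The floral lists came from anti-FLAG ChIP–seq of plants expressing ELF7 or HD2A with a FLAG tag from their own promoters and of a line labelled TRB1-ZF. As background, ABCE genes act in combination: AP1 specifies sepals and petals, AP3 and PI form a heterodimer for petals and stamens, AG specifies stamens and carpels, and the SEP proteins are the partners that bring these factors into complexes. SHP1 and SHP2 act in carpel and fruit valve margins, and FUL, a close relative of AP1, acts in the fruit valves, in stem leaves and at the start of flowering. In leaves these genes are classical Polycomb targets: Polycomb repressive complex 2, of which MSI1 is a subunit, places H3K27me3 over them and LHP1 binds that mark, whereas trithorax-type activity, H3K4me3, acetylation and H3K36 methylation accompany their transcription.

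The lists hold positions and folds, not read counts, so the depth of each library is unknown. Folds were never compared between lists, and a difference in covered bases also depends on how much was called in each list. The number of peaks per list was between 10949 and 14912 for H3K27me3 in data sets 1 and 2 (the numbering of the sample titles), against 940 to 2199 in data set 14. The leaf label was checked against 6 photosynthesis genes, RBCS1A, RCA, CA1, GAPA, LHCB4.1 and PSBO1. All 6 held a peak in every H3K4me3, H3K9ac, H3K14ac, H3K27ac, H3K36me2 and Pol II list and 5 or 6 did in the H3K36me3 lists and 4 to 6 in the H4K16ac lists. In H3K27me3 lists of data sets 1 and 2, 0 or 1 of the 6 leaf genes held a peak, whereas in data set 14 it was 4 or 5, and the members there numbered 0 to 7. Lists of data sets 2, 4 and 20 stood apart at the members, as described below, and results that rest on them are given with and without them. Where a line has 2 values, replicate 1 is given before replicate 2. The labels do not say whether replicates came from separate collections, so p-values measure only the spread between libraries, which may be technical.

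H3K27me3 was found on all 10 members in each of the 10 leaf lists of data sets 1 and 2, whichever line they came from. A peak in all 10 of these lists was held by 15.6% of genes, 4271 in number. In data set 1 the peaks covered between 46.3% of the window (SHP1 in JMJ14-ZF) and the whole of it (AG in ELF7-ZF, MSI1-ZF and fwa). By the median over members, the strongest peaks stood high in their lists, with median fold ranks per list of 92.7 to 94.1% in data set 2 and 95.5 to 99.0% in data set 1. Single members ranked lower in data set 2, with 23.1 to 77.9% for SEP1 and 45.2 to 80.7% for SEP3. SHP2 ranked there at 60.0 to 97.3% and AP3 at 64.6 to 99.5%. These ranks were not set against those of other genes with the mark. On average over members and lists, the peaks of data set 1 covered 45.4% of the 500 bp upstream, 90.9% of the 5′-most part of the gene, 97.3% of its middle part and 76.4% of its 3′-most part, when each gene was divided into 3 parts of equal length. The mark thus lay over gene bodies more than over the upstream sequence.

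Of the class E genes, SEP1 and SEP3 differed most between the 2 data sets. In data set 2, SEP1 had 250, 1126, 425 and 154 covered bases in ELF7-ZF, JMJ14-ZF, LHP1-ZF and MSI1-ZF, against 1023 in fwa. SEP3 had 1566, 1665, 824 and 1525 there, against 1680 in fwa. SEP1 was thus largely bare and SEP3 partly so in every list of data set 2, in the control as in the fusions, whereas SEP2 had 2138 to 2962. In data set 1 all 3 were covered over most of the window. SEP1 had 2867, 2414, 2511 and 2926 covered bases in ELF7-ZF, JMJ14-ZF, LHP1-ZF and MSI1-ZF, against 2905 in fwa. In the same order SEP2 had 3176, 3123, 3108 and 3212, against 3251 in fwa, and SEP3 2906, 2823, 2414 and 2900, against 2890. The fold rank of SEP2 was 99.8 and 97.1% in LHP1-ZF and 99.1 and 96.2% in ELF7-ZF, against 95.1 and 95.4% in fwa, so that it was higher in both libraries of each. Of the genes with a peak in all 4 libraries, 13.6% had a higher rank by this rule in LHP1-ZF and 13.9% in ELF7-ZF.

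AP1, the class A gene among the members, was covered by 4274 to 4472 bases in data set 2 and by 3981 to 4462 in data set 1. Its fold ranks were 93.6% or more in all 10 lists. FUL had 2976 and 3530 covered bases in ELF7-ZF, against 3567 and 3829 in fwa. This was fewer in each data set, and the groups did not overlap (difference of means −445, exact two-sided permutation p = 0.3333, the smallest that 2 libraries against 2 allow). Fewer covered bases in ELF7-ZF by the same rule were found at 2.88% of genes. In data set 2 FUL was covered over 90.3% of its 3′-most part and 27.8% of its upstream 500 bp. In data set 1 it was covered over 62.5% of that part and none of the upstream sequence.

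The class B genes varied little. AP3 had 1941 to 2041 covered bases in data set 2 and 1990 to 2086 in data set 1. In LHP1-ZF it had 1990 and 1941, against 2015 and 2041 in fwa, a difference of −62.5 bases that met the non-overlap rule, as did 7.20% of genes (permutation p = 0.3333). PI had 2740 and 2674 in JMJ14-ZF, against 3046 and 2807 in fwa (−219.5 bases, exact permutation p = 0.3333). The rule called 5.48% of genes in that comparison. The call on PI was lost when the gene body was read without the upstream 500 bp. In LHP1-ZF the fold rank of PI was 93.3 and 90.7%, against 99.3 and 96.7% in fwa, lower in both, as in 22.4% of genes with a peak in all 4 libraries.

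AG, the class C gene, was covered over 4405 to 5243 bases in data set 2, and over 6184 of 6184 bases in 3 of the 5 lists of data set 1. Of the SHP genes, SHP2 had more covered bases in both libraries of each fusion to a Polycomb protein than in either fwa library. MSI1-ZF gave 3976 and 2715 covered bases of SHP2 and LHP1-ZF gave 3100 and 2968, against 2403 and 2591 in fwa, which is the control of both fusions. The other fusions with the same control had values on both sides of fwa, 2187 and 3395 in JMJ14-ZF and 2981 and 2256 in ELF7-ZF. In data set 2 the JMJ14-ZF value was thus above those of MSI1-ZF and LHP1-ZF. The difference of means was 848.5 bases for MSI1-ZF, where 2.90% of genes were called for more covered bases. It was 537 bases for LHP1-ZF, where 1.96% were called, and the exact permutation p was 0.3333 for each. The SHP2 call in MSI1-ZF was lost when the lowest 25% of each list by fold was left out. The fold rank of SHP2 was 97.4 and 95.3% (MSI1-ZF), 98.4 and 92.6% (LHP1-ZF), 99.7 and 90.6% (JMJ14-ZF) and 82.1 and 97.3% (ELF7-ZF), against 70.1 and 60.0% in fwa. Among genes with a peak in all 4 libraries, a higher rank in both libraries was found in 14.8% for MSI1-ZF. The share was 13.6% for LHP1-ZF and 13.9% for ELF7-ZF, and 719 of 5137 genes were called for JMJ14-ZF. SHP1 had 3377 and 2226 covered bases with MSI1-ZF and 3508 and 2373 with LHP1-ZF, against 2727 and 1479 in fwa. These overlap across data sets, but within each data set SHP1 was higher in both fusions. With the replicate number as a block, that is with each library compared only with fwa of its own data set, more covered bases were called at SHP1 and SHP2 in LHP1-ZF (3.50% of genes), at SHP1, SHP2 and PI in MSI1-ZF (5.24%) and at SHP1 in ELF7-ZF (3.76%). Fewer were called at AG, SEP1, SEP3 and AP3 in LHP1-ZF (11.4% of genes), at SEP2 in MSI1-ZF (9.37%), at SEP1, SEP2 and FUL in ELF7-ZF (6.80%) and at AG, SEP3, PI and FUL in JMJ14-ZF (8.91%). The block thus called more members in these comparisons than the non-overlap of all libraries did, and also more of the other genes.

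**Figure D1:**
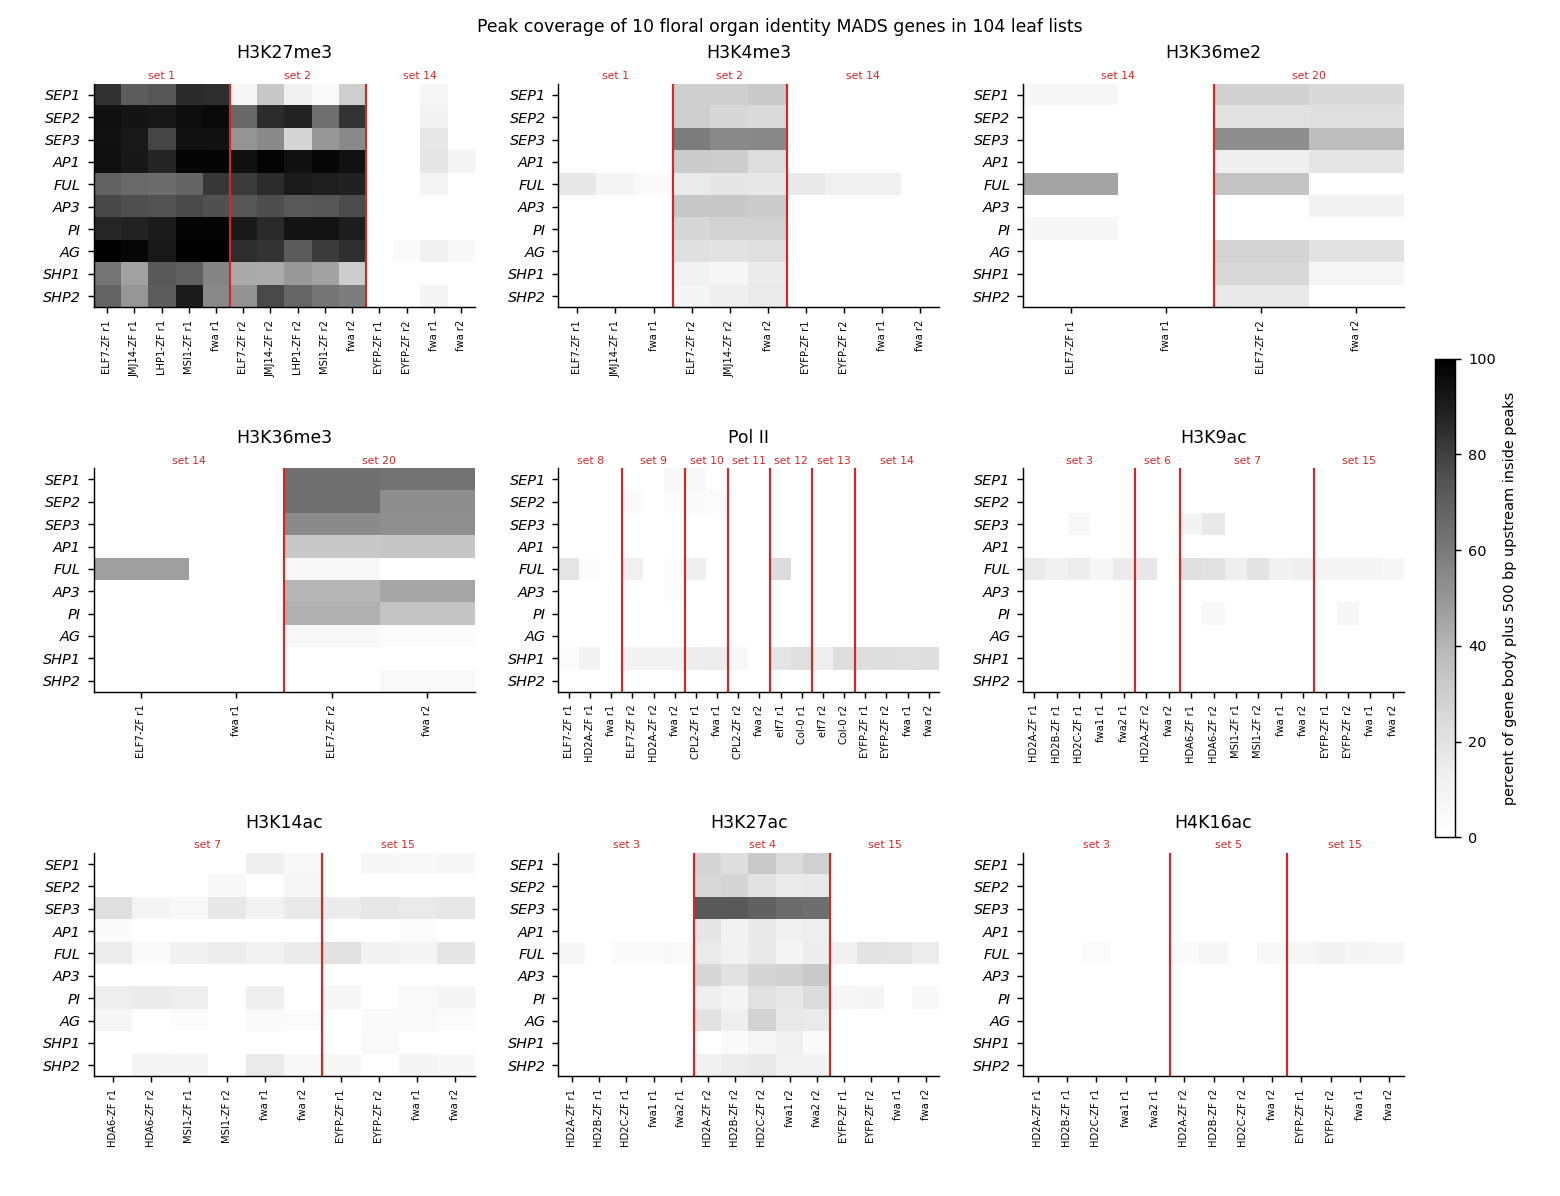
Percent of each member's gene body plus 500 bp upstream that lies inside peaks (grey scale, 0 to 100), with 1 column per leaf list, the lists divided by data set (red lines) and fusion or mutant lines left of their controls within each data set. H3K27me3 covers all 10 members in data sets 1 and 2, H3K4me3, H3K36me3 and H3K27ac appear on most members in data sets 2, 20 and 4, and FUL is the 1 member with marks of active chromatin in most other lists.

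Marks of active chromatin on the members differed between data sets rather than between lines. In data set 2, all 10 members held an H3K4me3 peak in ELF7-ZF, JMJ14-ZF and fwa, whereas in data set 1 only FUL did in the same 3 lines. Thus 9 members were present in every list of data set 2 and in none of data set 1, and none showed the reverse. Of all genes, 2.64% were present in every list of data set 2 and none of data set 1, 725 genes against 404 with the reverse pattern. SEP3 had 1828, 1680 and 1689 covered bases in ELF7-ZF, JMJ14-ZF and fwa of data set 2, against 0 in each list of data set 1. AG had 1237 to 1329 bases and AP1 1033 to 1413, against 0 for both in data set 1. SEP1 (992 to 1085), SEP2 (826 to 984), AP3 (826 to 883) and PI (807 to 871) were alike, and SHP1 (365 to 732) and SHP2 (377 to 674) were covered least, again against 0. With 3 libraries against 3, the exact permutation p was 0.1 for each, the smallest possible, and 0.332 after Benjamini-Hochberg adjustment over all genes. The contrasts of data sets, here and below, were added after these differences were seen. Their p-values are descriptive and do not use the pairing of libraries by line.

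H3K27ac divided in the same way between data sets 4 and 3, each with 1 library of HD2A-ZF, HD2B-ZF, HD2C-ZF, fwa1 and fwa2. In data set 4, 8 members had a peak in all 5 lists and in none of data set 3, a pattern found in 1.31% of genes (360, against 377 with the reverse). SEP3 had 1980, 2133 and 2223 covered bases as lowest, median and highest in data set 4, against 0 in all lists of data set 3. AG had 812, 1004 and 1727, against 0. SEP1 had 758 to 1084 bases, AP3 535 to 853, SEP2 538 to 902, SHP2 432 to 717, AP1 462 to 825 and PI 245 to 741, all against 0. For these 8 members the exact permutation p was 0.00794, the smallest for 5 against 5, and 0.0503 when adjusted over all genes. As this contrast was added after the difference was seen, these p-values are descriptive. SHP1 had a peak in 4 of the 5 lists of data set 4 (lowest 0, median 195, highest 596 bases), against 0 (exact permutation p = 0.0476, adjusted 0.174). FUL was covered in both, with 405 to 696 bases in data set 4 and 0 to 258 in data set 3.

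H3K36me3 was measured in ELF7-ZF and fwa, in data set 20 for replicate 2 and data set 14 for replicate 1. In data set 20, 7 members were covered in both lists and in neither of data set 14, as were 1.83% of genes (503, against 635 with the reverse). SEP1 had 2139 to 2172 covered bases in data set 20, SEP2 1777 to 2153, SEP3 1609 to 1670, AP1 1480 to 1530, PI 1061 to 1282, AP3 1064 to 1208 and AG 180 to 332, against 0 for all in data set 14. SHP1 had none in either data set. H3K36me2, a mark of the same residue, was present in both lists of data set 20 and neither of data set 14 at 4 members, AG, SEP2, SEP3 and AP1, against 2.89% of all genes. SEP3 had 1618 bases in ELF7-ZF and 1153 in fwa of data set 20. PI had no H3K36me2 peak in data set 20. With 2 libraries against 2, the exact permutation test of these differences could not go below p = 0.3333.

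**Figure D2:**
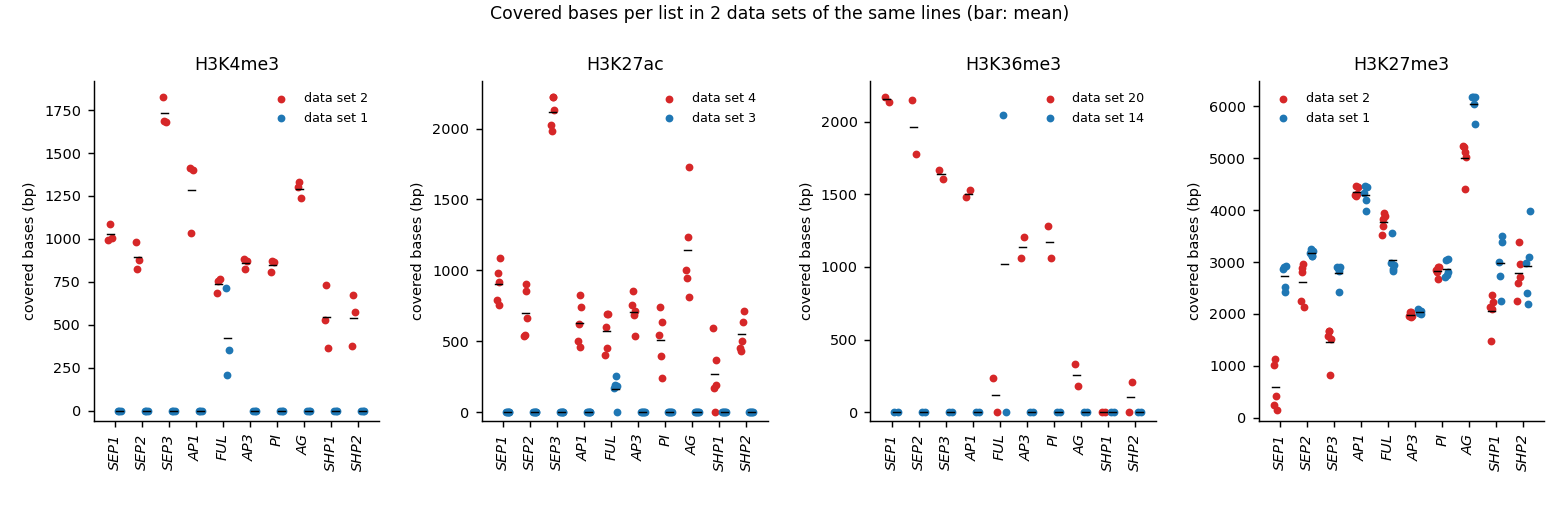
Covered bases of each member (points, 1 per list; bar, mean of the lists of a data set) for 4 marks in 2 data sets that hold the same lines. H3K4me3 in data set 2, H3K27ac in data set 4 and H3K36me3 in data set 20 lie above 0 for most members that are at 0 in data sets 1, 3 and 14, and H3K27me3 of SEP1 lies at 154 to 1126 bases in data set 2, against 2414 to 2926 in data set 1.

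Of the members, 7 (AG, SEP1, SEP2, SEP3, AP3, PI and AP1) met all 3 patterns, for H3K4me3, H3K27ac and H3K36me3, as did 88 genes in all, 0.321%. Among the 4271 genes with H3K27me3 in all 10 lists, the patterns were found in 3.44% for H3K4me3, 1.66% for H3K27ac and 1.05% for H3K36me3. H3K27me3 went the other way at 4 members. AG, SEP1, SEP2 and SEP3 had fewer covered bases in every list of data set 2 than in any of data set 1 (exact permutation p = 0.00794, 5 against 5, adjusted 0.199), as did 3.22% of genes. AP1, AP3, PI, SHP1, SHP2 and FUL overlapped. SEP1 was covered over 20.7% of the middle part of the gene in data set 2, against 100% in data set 1, and SEP3 over 28.3% of its 3′-most part, against 97.0%.

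Tissue markers and related genes were read in the same data sets, and a difference in tissue between the data sets was not tested. All 6 leaf genes kept H3K4me3 and H3K27ac peaks in data sets 2 and 4 as in data sets 1 and 3, and 5 of 6 held H3K36me3 in data set 20, against 6 of 6 in data set 14. Being present throughout data sets 1, 3 and 14, these genes could not show a gain. Of 6 seed and root genes, including the storage protein genes CRU3 and CRA1 and the root stem cell gene WOX5, 2 held a peak of each of these 3 marks in every one of these data sets. Of 6 other floral MADS genes (CAL, SEP4, STK, TT16, AGL6 and AGL13), 2 held H3K4me3 in data set 2, against 1 in data set 1, and 2 or 3 held H3K27ac in data set 4, against 1 in data set 3. H3K36me3 was held by 1 of them in data set 20 and by 1 in data set 14. Of 8 regulators that act before or after the members (such as LFY, UFO, WUS and AP2), 1 to 3 held H3K4me3 in data set 2, against 2 in data set 1, and 1 held H3K27ac in data set 4, against 1 or 2 in data set 3. In these lists the data set and the replicate number cannot be told apart.

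Along the genes the active marks succeeded one another. None of the 3 active marks covered any of the 500 bp upstream of a member on average. H3K4me3 of data set 2 covered 68.0% of the 5′-most part of the gene, 21.3% of the middle part and 2.24% of the 3′-most part. H3K27ac of data set 4 covered 56.2, 14.96 and 6.95% of the same parts. H3K36me3 of data set 20 reached further, with 45.7, 48.8 and 10.5%, and H3K36me2 lay at the 3′ end, with 5.80, 13.4 and 42.6%. SEP3 was the exception in breadth: H3K4me3 and H3K27ac both covered 100% of its middle part.

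**Figure D3:**
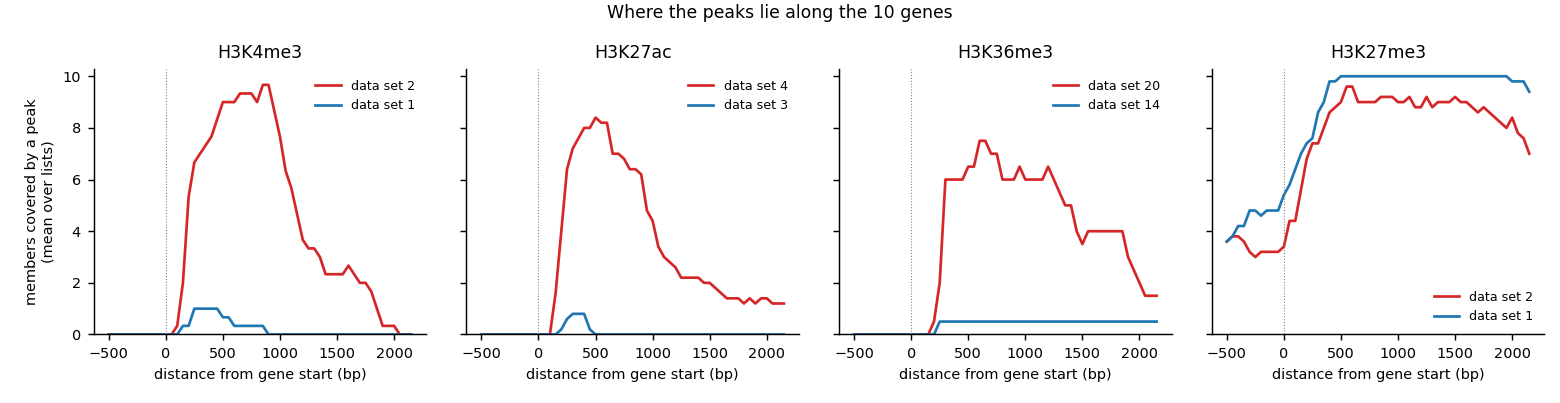
Number of the 10 members covered by a peak (mean over the lists of a data set) by distance from the gene start in bp, for H3K4me3, H3K27ac, H3K36me3 and H3K27me3. The active marks of data sets 2, 4 and 20 start after the gene start and leave the upstream 500 bp at 0, whereas H3K27me3 reaches upstream in some of the members in both data sets.

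Where H3K4me3 was found on the members, it mostly lay inside H3K27me3 peaks of the same line and data set. In data set 2, 87.2% of the members' H3K4me3 bases in ELF7-ZF were also inside H3K27me3 peaks, 93.3% in JMJ14-ZF and 90.7% in fwa. Over the whole genome this share was 2.28% in ELF7-ZF, 2.46% in JMJ14-ZF and 2.78% in fwa. On average over members and lists of data set 2, H3K27me3 covered 80.0% of the 5′-most part and 81.3% of the middle part. Much overlap at the members thus follows from this breadth alone, and the genome share does not allow for it. AG, SEP2, AP3, PI, SHP1 and FUL overlapped in full in all 3 lines. SEP1 was lowest, with 25.2, 51.6 and 45.9% in ELF7-ZF, JMJ14-ZF and fwa, and SEP3 had 74.1, 95.4 and 80.9%. In data set 1 FUL alone had both marks, over 530 of 712 H3K4me3 bases in ELF7-ZF, 244 of 350 in JMJ14-ZF and 186 of 209 in fwa. In bulk leaves, the 2 marks on 1 molecule and the 2 marks in different cells or alleles cannot be told apart.

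FUL held acetylation or H3K4me3 in most lists of these marks, also outside data sets 2 and 4. H3K9ac lay on FUL in 5 of 5 lists of data set 3, 1 of 2 of data set 6 (in HD2A-ZF and not in fwa), 6 of 6 of data set 7 and 4 of 4 of data set 15, and H3K14ac in all 10 lists. H4K16ac was less frequent, in 1 of 5 lists of data set 3, 3 of 4 of data set 5 and 4 of 4 of data set 15. Per list, 56.2 to 64.5% of all genes held an H3K9ac peak, 66.7 to 71.0% an H3K14ac peak and 33.1 to 61.2% an H4K16ac peak. In EYFP-ZF H3K4me3 covered 707 and 535 bases of FUL, against 520 and 0 in fwa of the same data set, a non-overlap found in 8.48% of genes. That call was lost when the lowest 25% of each list was left out. Its fold ranks were low or middling, 7.91 to 61.0% for H3K4me3 and 9.36 to 56.3% for H3K9ac.

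In ELF7-ZF, FUL held peaks of both H3K36 marks that fwa lacked. ELF7 is a subunit of the PAF1 complex, which travels with elongating Pol II. H3K36me2 covered 1971 and 1505 bases of FUL in ELF7-ZF, against 0 and 0 in fwa, and was gained by the rule of a peak in both libraries of the line and in neither of the control, as were 0.896% of genes. The peaks began 201 and 168 bp after the gene start and ended by 3527 and 2522 bp, with fold ranks up to 77.2 and 33.0%. H3K36me3 covered 2044 and 235 bases in ELF7-ZF, against 0 and 0, a gain found in 0.160% of genes. Its peaks ranked low, at 16.1 and 2.87%, and the call was lost when the lowest 25% of each list was left out. More covered bases were called in 7.86% of genes for H3K36me2 and in 15.2% for H3K36me3. Pol II covered 803 and 523 bases of FUL in ELF7-ZF, against 0 and 108 in fwa, more in both libraries, as in 7.94% of genes. The peaks of ELF7-ZF included 1 close to the gene start in each library, from 220 to 582 bp and from 142 to 351 bp. The strongest peak of replicate 2 lay at the 3′ end, from 3678 to 4064 bp, where the single fwa peak lay too, from 3728 to 4003 bp. All these calls had an exact permutation p of 0.3333. Elsewhere Pol II was on FUL in 1 of 2 libraries of elf7 (1009 and 0 bases, against 0 and 0 in Col-0), of CPL2-ZF (546 and 0, against 0 and 0 in fwa) and of HD2A-ZF (91 and 0, against 0 and 108 in fwa), and in neither EYFP-ZF nor its control.

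H3K9ac of FUL, but not H3K14ac, was broader in the histone deacetylase fusion HDA6-ZF. H3K9ac covered 941 and 856 bases in HDA6-ZF and 545 and 828 in MSI1-ZF, against 475 and 559 in fwa of the same data set. The HDA6-ZF values lay above both controls and their fold ranks were higher, 42.9 and 56.3%, against 35.3 and 17.5% in fwa. More covered bases were called in 11.3% of genes in that comparison, and a higher fold rank in 18.9% of genes with a peak in all 4 libraries. H3K14ac covered 627 and 179 bases of FUL in HDA6-ZF, against 470 and 659 in fwa, values that overlap and have the lower mean in HDA6-ZF. H3K27ac of FUL ranked at 34.8 and 34.6% in HD2A-ZF, against 10.8, 25.4, 4.61 and 32.9% in the 4 fwa libraries, higher in both, as in 4.53% of genes with a peak in all of them. H3K9ac covered 694 and 755 bases of FUL in HD2A-ZF, against 295, 655 and 0 in the 3 fwa libraries (exact permutation p = 0.2, smallest possible 0.1), and 8.57% of genes were called. Single H3K9ac libraries gave 504 bases in HD2B-ZF and 604 in HD2C-ZF, which have no replicate.

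**Figure D4:**
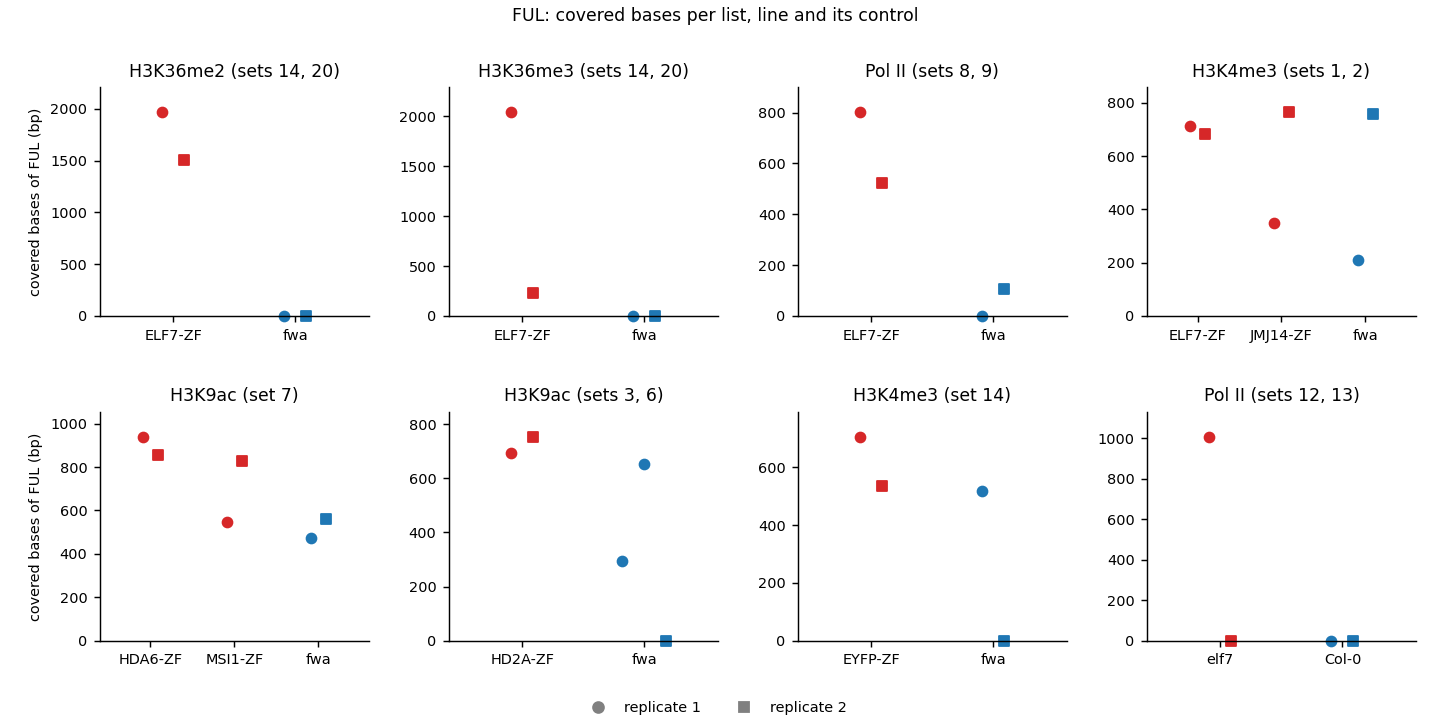
Covered bases of FUL in each list (circle, replicate 1; square, replicate 2), lines in red left of their control in blue, for 8 combinations of mark and data sets. H3K36me2 and H3K36me3 reach 235 bases or more in both ELF7-ZF libraries and 0 in both fwa libraries, whereas for H3K4me3 in data sets 1 and 2 the lines and fwa overlap.

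Members other than FUL also held acetylation outside data sets 2, 4 and 20. H3K14ac lay on AG, PI and SHP2 in 3 of 4 lists of data set 15 and 4 of 6 of data set 7. On SEP1 it lay in 3 of 4 and 2 of 6. Of all genes, 66.7 to 71.0% held an H3K14ac peak in a list. H3K14ac covered 166 to 673 bases of SEP3 in all 10 lists, at fold ranks of 4.44 to 27.7%. The rank was 27.7 and 24.8% in HDA6-ZF, against 6.92 and 16.2% in fwa, and 22.0 and 22.0% in EYFP-ZF, against 4.44 and 11.9% in fwa of its own data set. Higher ranks were called in 12.9% of genes with peaks throughout in HDA6-ZF and 15.1% in EYFP-ZF. In HDA6-ZF H3K9ac covered 307 and 504 bases, against 0 and 0 in fwa, a gain found in 0.474% of genes. The peaks ranked at 6.66 and 16.8% of their lists, and the call was lost when the lowest 25% was left out. AGL19, a flowering activator of the same gene family that is also a Polycomb target, gained H3K9ac in the same comparison, with 567 and 751 covered bases against 0 and 0. SEP1 showed the opposite for H3K14ac, with 0 and 0 bases in HDA6-ZF and 0 and 0 in MSI1-ZF, against 432 and 194 in the fwa libraries that both share. A loss was called in 1.45% of genes in HDA6-ZF and 1.53% in MSI1-ZF, and neither loss of SEP1 was called when the lowest 25% was left out. Fewer H3K14ac bases were called in 36.8% of genes in HDA6-ZF and 27.1% in MSI1-ZF. AG was among those called in MSI1-ZF, with 165 and 0 bases against 299 and 182 in fwa, and its call too was lost with the lowest 25%. PI had 424 and 468 bases in HDA6-ZF, against 422 and 0 in fwa (more covered bases in 2.72% of genes), a call also lost with the lowest 25% left out. AGL6 (839 and 585 bases in fwa) and LFY (238 and 291) also had none in HDA6-ZF, and AGL42 (207 and 415 in fwa) had none in MSI1-ZF.

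Pol II was sparse on the members, with a median coverage of 0.199% of the window over the 6 fwa lists, against 3.75% for the median gene. SHP1 was the exception, with a Pol II peak in 16 of 18 lists, but the peaks lay at its 3′ end. GAUT15, a galacturonosyltransferase gene on the opposite strand at chr3:21742071-21746324, overlaps the SHP1 window by 447 bases. In Col-0, EYFP-ZF and fwa of data sets 12 to 14 the peak started 3254 to 3303 bp after the SHP1 gene start and in 5 of these 6 lists ran on to 8153 bp or further, over GAUT15. ChIP–seq has no strand, so Pol II of SHP1 and of GAUT15 cannot be told apart there. SHP1 had 905 and 645 covered bases in elf7, against 1059 and 1063 in Col-0, with fold ranks of 77.8 and 67.9%, against 89.7 and 88.6%. Fewer Pol II bases were called in 16.4% of genes in elf7, and a lower fold rank in 26.1% of genes with a peak in all 4 libraries. It had 495 and 469 in HD2A-ZF, against 0 and 465 in fwa (1.73% of genes called for more), and 1104 and 1079 in EYFP-ZF, against 1055 and 1071 in fwa (8.83% of genes). In ELF7-ZF SHP1 had 162 and 465 bases, against 0 and 465 in fwa. When Pol II peaks that also touch another gene were left out, the differences for elf7 and EYFP-ZF were 0 and that for HD2A-ZF was 156 bases without a call. The same filter made SHP1 a gain in ELF7-ZF. Its ELF7-ZF peaks ended at 3784 and 3876 bp and were kept, whereas the fwa peak ended at 3949 bp, inside GAUT15, and was left out. Pol II peaks also covered 30 to 198 bases of the windows of SEP1, SEP2 and AP3, in data sets 9 and 10 only. The AP3 bases lay in its upstream 500 bp, and those of SEP1 and SEP2 in the 3′-most part of the gene. AT5G15790, on the opposite strand, shares 100 bases of the SEP1 window.

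The control fusion EYFP-ZF, which carries ZF without an effector, met the non-overlap rules at members as the effector fusions did. AP1 had no H3K27me3 base in EYFP-ZF, against 843 and 369 in fwa, a loss found in 0.299% of genes, and AG had 0 and 234 bases, against 739 and 335 (fewer in 0.798% of genes). These lists were the short ones of data set 14, with 1373 and 940 peaks in EYFP-ZF, against 2199 and 1149 in fwa, and the part of this difference in the calls was not tested. They also held H3K27me3 peaks at 4 or 5 of the 6 leaf genes, against 0 or 1 in data sets 1 and 2. Their peaks thus differ from the H3K27me3 pattern of those data sets, which limits what a loss here can mean. SPL and CRU3 were lost in the same comparison (471 and 366, and 472 and 171 bases in fwa). In data set 15, H3K14ac covered 281 and 0 bases of SHP2 in EYFP-ZF, against 349 and 306 in fwa (fewer in 15.4% of genes). H3K27ac covered 192 and 266 bases of PI, against 0 and 169 (more in 6.78% of genes), and both calls were lost when the lowest 25% was left out.

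Over all 30 comparisons with replicates and 10 members, 3 of 300 cases were gains and 3 were losses, 1% each, against 0.329 and 0.669% of cases over all genes. More covered bases were called in 13 cases (4.33%, against 6.13% over all genes) and fewer in 10 (3.33%, against 8.70%). A higher fold rank was called in 10 of the 58 cases with a peak in all libraries (17.2%, against 13.4% over all genes) and a lower one in 2 (3.45%, against 15.9%). These shares were not tested against each other, and a gene without a peak in any library cannot be called. Each gain or loss came from FUL, SEP3, SEP1 or AP1. No member gained or lost H3K4me3, Pol II, H3K27ac or H4K16ac in any comparison. All these calls rest on a rule of non-overlap.

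In floral tissue, where these genes are active, ELF7-FLAG lay on all 10 members in both libraries, against 48.7% of genes in replicate 1 and 35.1% in replicate 2. ELF7 covered a median of 77.7 and 79.3% of the members' windows, against 51.0 and 32.9% for the median gene with a peak. AG had 5177 and 4944 covered bases, AP1 3860 and 3928, SHP1 3763 and 3153 and FUL 3569 and 3604. SHP2 was least covered, with 1807 and 1526 bases in separate stretches. On SEP3 the peak ran from 210 to 3067 bp after the gene start in replicate 1 and from 140 to 3179 bp in replicate 2, beyond the gene's 2588 bp, and on AP1 from 136 to 3995 and from 128 to 4055 bp. Except at SHP2, ELF7 thus covered most of each gene body from after the start to near the end, and it left the upstream 500 bp free of peaks in both replicates. Folds were given in replicate 2 alone. SEP3 was highest, with a fold of 10.5 and a rank of 99.5%, followed by AP1 (96.9%), SEP1 and FUL (95.3% each), SEP2 (93.6%), AG (86.8%), PI (86.0%), SHP1 (77.3%), AP3 (60.1%) and SHP2 (48.6%). HD2A-FLAG, whose list was short and had no replicate, lay on 0 of 10 members and on 1.40% of genes.

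The anti-FLAG list labelled TRB1-ZF, for which the study's text speaks of FLAG-ZF, also lay on all 10 members and on 49.6% of genes. Peaks of any fold were counted here, whereas the study took as ZF sites only peaks above a set enrichment over fwa. It had no replicate. Binding through ZF and through the fused protein cannot be told apart in 1 list. The peaks covered a median of 28.4% of the members' windows, against 16.1% for the median gene with a peak. The strongest summit inside the window of SEP2 was 61 bp after the gene start in the 5′ UTR (fold 9.65, rank 98.5%), that of FUL 289 bp after it in coding exon 1 (7.82, 94.9%), and that of SEP1 98 bp after it in the 5′ UTR (6.49, 89.95%). SHP2 had its summit at −221 bp, upstream of the start (5.29, 82.7%), SHP1 45 bp after the start (4.38, 74.2%), SEP3 at 304 bp in coding exon 1 (3.92, 67.9%) and AP1 at 246 bp (3.15, 52.5%). AG (at −127 bp), AP3 (168 bp) and PI (615 bp, in intron 1) had the lowest, with folds of 2.87, 2.78 and 2.22. The members thus varied from the top of the list to its lower part.

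**Figure D5:**
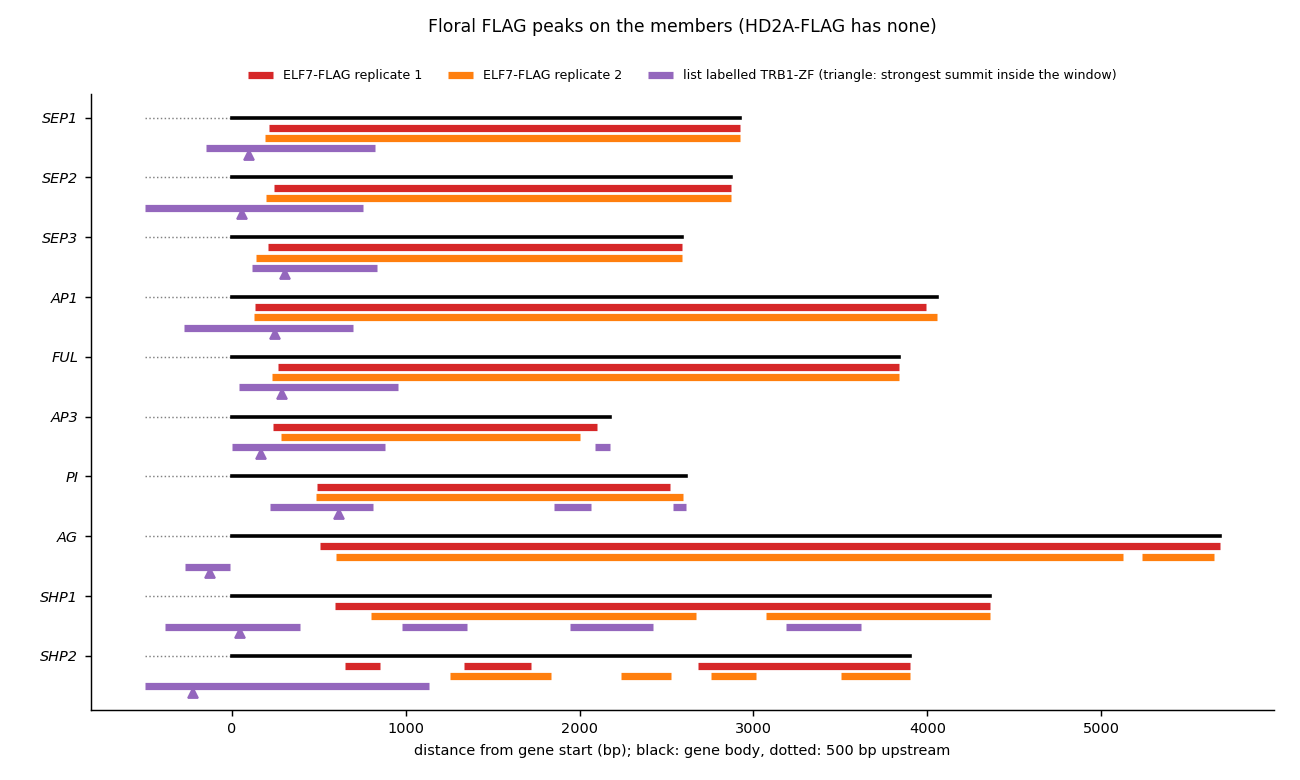
Peaks of the floral FLAG lists on each member, by distance from the gene start in bp (black line, gene body; dotted line, 500 bp upstream). ELF7-FLAG covers most gene bodies from start to end in both replicates, whereas the TRB1-ZF peaks lie near the start of most members.

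Because TRB proteins are telomere-repeat binding factors and telobox and GA-rich motifs are known at Arabidopsis Polycomb targets, the sequence at these summits is shown. The telobox AAACCCTA, searched on both strands within 150 bases of each strongest summit, was found at 2 of 10 members, SEP1 and SEP2, and at 12.3% of the 22456 summits of the whole list. Both sites lie in the 5′ UTR on the minus strand, at chr3:467061-467090 for SEP2 and chr5:5154149-5154178 for SEP1 (RefSeq, TAIR10.1), and capitals mark the telobox and, in SEP2, a GA motif read on the other strand.
SEP2 telobox: attgtatcaccAAACCCTAatgaTCTCTCa
SEP1 telobox: gaaaacacaccAAACCCTAacctcaccctc

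GAGAGA, counted with overlapping matches on both strands, was found at 9 of 10 members and at 32.4% of the list's summits. FUL had 8 matches on the strand of the gene and 2 on the other, SEP2 6 and 1, and SEP3 6 and 0. PI had none. In the 500 bp upstream of the gene start, the telobox was found in 3 members (FUL, SEP3 and AP3) and in 7.51% of genes, and GAGAGA in 6 members and 35.2% of genes. The runs at the 3 members with most matches are shown, with GAGAGA in capitals. They lie in 5′ UTRs on the minus strand, at chr3:467094-467123 for SEP2, chr5:24506080-24506109 for FUL and chr1:8595892-8595921 for SEP3.
SEP2 GA run: aGAGAGAaagagtaaagaagtaGAGAGAGA
FUL GA run: GAGAGAcataagaaagaaaGAGAGAGAGAg
SEP3 GA run: caaggaaaGAGAGAGAGAGAGAttgagata

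The summits of FUL and SEP3 lie in the first coding exon, which encodes the start of the MADS DNA-binding domain and is similar among the members, so the first 150 coding bases of FUL, SEP3 and AP1 are given to show how far reads could be assigned. They lie on the minus strand at chr5:24505864-24506013 for FUL, chr1:8595713-8595862 for SEP3 and chr1:25985953-25986102 for AP1.
FUL coding start: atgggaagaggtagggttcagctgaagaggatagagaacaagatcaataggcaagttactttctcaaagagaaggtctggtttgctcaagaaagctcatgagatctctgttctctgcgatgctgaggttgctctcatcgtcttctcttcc
SEP3 coding start: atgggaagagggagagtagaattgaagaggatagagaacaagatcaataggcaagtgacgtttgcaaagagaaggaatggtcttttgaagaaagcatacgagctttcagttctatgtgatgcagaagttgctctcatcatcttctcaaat
AP1 coding start: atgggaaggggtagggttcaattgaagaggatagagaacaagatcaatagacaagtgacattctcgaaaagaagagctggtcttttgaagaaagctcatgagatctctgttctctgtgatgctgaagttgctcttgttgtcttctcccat

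FUL and AP1 were equal at 84.7% of these bases, AP1 and SEP3 at 81.3% and FUL and SEP3 at 79.3%. The longest stretch shared letter for letter by the windows of any pair of members was 34 bases, between SEP3 and FUL, and 32 between SEP1 and SEP2. The study kept reads with 1 mapping site, and reads longer than such a stretch tell the members apart.

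AG is given as the member whose TRB1-ZF peak lies wholly upstream, from −268 to −10 bp relative to the gene start. The shown region lies on the plus strand at chr4:10382579-10382855, and capitals mark the single GA motif, read on the other strand.
AG upstream: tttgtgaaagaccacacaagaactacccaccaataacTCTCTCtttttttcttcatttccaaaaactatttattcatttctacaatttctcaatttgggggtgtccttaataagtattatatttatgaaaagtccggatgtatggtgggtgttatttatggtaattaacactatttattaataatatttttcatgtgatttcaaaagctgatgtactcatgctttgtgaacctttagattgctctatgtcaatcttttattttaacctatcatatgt

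Across the 40 fwa lists and the 9 targets, the median member had H3K27me3 over 43.1% of its window, against 0% for the median gene, and less of every other target than the median gene. Without the short lists of data set 14 this share was 80.5%, against 0%. H3K4me3 covered 6.56%, against 14.97%, H3K36me3 16.9%, against 23.2%, H3K27ac 6.57%, against 14.99%, and H3K14ac 5.22%, against 18.6%. H3K36me2 covered 7.28%, against 28.9%. Without data sets 2, 4 and 20, the median member had 0% of H3K4me3, H3K27ac, H3K36me2 and H3K36me3, against 15.2, 15.9, 24.0 and 21.9% for the median gene. H3K9ac and H4K16ac covered 0% of the median member, against 12.97 and 6.58%. The genes whose profile lay closest to that of the median member were PER1, a seed peroxiredoxin (mean absolute difference over the targets 3.23 percentage points), AGL42, a MADS gene of the flowering pathway (3.59), and AT1G72210 (3.59). The members themselves lay between 1.61 (PI) and 7.19 points (SHP1) from their own median.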

How the data were processed

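The authors trimmed ChIP–seq reads, aligned them to TAIR10 with Bowtie2 (2.1.0), keeping a single mapping site and no mismatch. SAMtools (1.9) served to drop duplicate reads and MACS2 (2.1.1) to call peaks for each library. For FLAG-ZF the peaks were called against fwa, and the control of the other peak calls is not given in the sources used here. The deposited lists give each peak's fold enrichment, a ratio over local background that has no scale in common between lists. The ELF7-FLAG replicate 1 and HD2A-FLAG lists were deposited as positions alone and give no fold. Read depth is unknown, so no count interval was computed. Deposited amplicon methylation percentages (BSMAP 2.90) served only to check that file positions match the RefSeq TAIR10.1 assembly, from which gene models, sequences and motifs were taken, and all 3145 entries matched. RNA-seq and H3 libraries were not analysed here.

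Windows were gene bodies plus 500 bp upstream, and any overlap counted. Lists that repeat an interval for each summit were merged for covered bases, whereas fold ranks used every entry. A gene was gained or lost when all libraries of a line and no control library of the same data sets (or the reverse) held a peak, and had more or fewer covered bases, or a higher or lower fold rank, when the groups did not overlap. Exact two-sided permutation tests over libraries were run per gene, with Benjamini-Hochberg adjustment over all 27444 genes for the contrasts of data sets. The contrasts of data sets were added after seeing the data. They took the libraries of a data set as its replicates and left the pairing by line unused. Covered bases, fold ranks and the call of a gain were checked on simulated peak lists without noise between libraries. The other calls and the permutation tests were not checked in this way. Python 3.11.15, numpy 2.4.6, pandas 2.3.3 and matplotlib 3.10.9 were used. Replicate numbers pair libraries where each number marks its own data set in the titles. That holds for data sets 1 and 2, 3 to 6, 8 and 9, 10 and 11, 12 and 13, and 14 and 20. Alternatives were gene bodies alone, an overlap of 100 bp, the lowest 25% of each list by fold left out, each replicate left out, a block for the replicate number and, chosen after seeing the data, data sets 2, 4 and 20 (and, for the median profile, data set 14) left out and Pol II peaks shared with another gene left out. All members are named, and other genes where they were gained or lost beside a member, as tissue check, or as 1 of the 3 nearest profiles. The members and gene lists were chosen with earlier results of these data known.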

Additional observations from a re-analysis of the deposited data

Results flagged for a closer look

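Covered Pol II bases of SHP1 moved in opposite directions in different lines. The difference of means, line minus control, was 28.5 bases in EYFP-ZF and 249.5 in HD2A-ZF, each against fwa, and −286 in elf7 against Col-0. In each line both libraries lay on the same side of both controls. The difference between these comparisons was not tested, and the peaks at SHP1 continue into the convergent gene GAUT15. No outlying library was found in the 10 groups of 4 to 10 libraries that were examined.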

How the results depend on the processing

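Of 267 recomputed counts over members and comparisons, 179 kept within 1.5 times the main count and 88 did not. Of 120 recomputed differences of single members, 101 kept their call, 19 lost it and 0 reversed. Those without replicate 1 or without replicate 2 could not lose a call, because groups that do not overlap stay apart when a library is dropped. Each gain or loss was also counted as a difference in covered bases. The 101 therefore overstates how stable the calls are. Counts are cases, 1 for each member and comparison.

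With a replicate block, which takes each library with the control of its own number, more covered bases were called in 6 cases and fewer in 14 for H3K27me3 (main 2 and 5), more in 2 for H3K4me3 (main 1), 2 for H3K36me2 (1), 5 for H3K9ac (3) and 2 for H3K27ac (1), and fewer in 7 for H3K14ac (4). The block changed no other count beyond that limit.

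With the lowest 25% by fold left out, 1 case of more H3K27me3 was left, 0 of more H3K4me3, 0 gains and 0 of more H3K36me3, 0 gains of H3K9ac, 0 losses, 0 more and 1 fewer of H3K14ac, and 0 more and 1 fewer of H3K27ac. A peak in every control library was then held by 1 member for H3K14ac (main 5) and 0 for H3K27ac (main 1). With an overlap of 100 bp, 0 members held H3K36me2 in every control (main 1).

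Without data sets 2, 4 and 20, more covered bases were found in 13 cases and fewer in 27 for H3K27me3, more in 3 for H3K4me3, 3 gains, 3 more and 1 fewer for H3K36me2, and 1 loss, 2 more and 1 fewer for H3K27ac, with 1 library a side for these marks. Without Pol II peaks shared with another gene, 1 gain was found (main 0), that of SHP1 in ELF7-ZF, and 0 cases of fewer bases (main 1).

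Leaving out replicate 1 or replicate 2 leaves single libraries a side in most comparisons, so the calls become plain differences without a test. For H3K27me3, 2 to 7 members then held a peak in every control (main 2), with 1 to 7 losses (1), 13 to 20 cases of more bases (2) and 22 to 32 of fewer (5). H3K4me3 gave 0 to 1 members, 0 to 1 gains, 3 to 9 more and 0 to 12 fewer. H3K36me2 gave 1 to 7 members, 2 to 3 gains, 0 to 1 losses, 3 to 6 more and 1 to 3 fewer. H3K36me3 gave 0 to 8 members, 0 to 1 losses, 1 to 6 more and 0 to 3 fewer. Pol II gave 1 to 7 gains, 0 to 5 losses, 5 to 9 more and 2 to 7 fewer. H3K9ac gave 0 to 1 members, 1 to 4 gains and 5 to 7 more. H3K14ac gave 1 to 2 gains, 6 to 8 losses, 5 to 8 more and 12 to 15 fewer. H3K27ac gave 1 to 2 members, 0 to 1 gains, 1 loss in each, 2 to 18 more and 2 to 9 fewer. H4K16ac gave 0 to 1 members, 0 to 1 gains, 0 to 1 losses, 1 to 2 more and 1 to 2 fewer.

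No read depth is given, so an absent peak is a peak not called at an unknown depth.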
